A study of Mus musculus with 12 samples.

Results

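Epas1, Hif1a, Arnt, Egln1, Egln3 and Vegfa, 6 genes of the response to low oxygen, were followed through the network of acetylated chromatin contacts of young and old mouse liver cells. The genes were chosen by function and by their listing in the deposited cliques, with earlier results of the same networks known. They are 6 of the 9595 protein-coding genes listed in either network. All 6 were listed in young and 5 in old, Egln1 being absent there. Listing and clique size therefore entered the choice and are given as a description, with no test. The cells were hepatocytes of male C57BL/6 mice, 5 months old in the young group and 25 months old in the old group, with no treatment other than age. Each group had 6 libraries, from 2 biological replicates in 3 batches of technical repeats, and hepatocytes were obtained by collagenase digestion and low-speed pelleting. The young mice came from a commercial colony and the old from a national stock of aged animals, so source and age cannot be told apart. H3K27ac Hi-ChIP joins DNA ends that lie close together and recovers the pairs that carry histone H3 acetylated at lysine 27, the mark of active promoters and enhancers.

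Cells sense oxygen through hydroxylation of the alpha subunits of hypoxia-inducible factors. With oxygen present, prolyl hydroxylases, among them the products of Egln1 and Egln3, mark the alpha subunits made from Hif1a and Epas1 for the von Hippel-Lindau ubiquitin ligase, and they are degraded. When oxygen is low the alpha subunits persist, pair with the beta subunit encoded by Arnt and switch on targets such as Vegfa, a growth factor for blood vessels, and Egln3, which closes a feedback loop. In liver, the Epas1 product HIF-2 alpha is known for control of lipid handling, iron supply and erythropoietin.

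Each age was deposited as 1 network, with no replicate or batch named, and was treated as a pool of the 6 libraries. A node is a 5 kb bin, every node belongs to exactly 1 clique (the authors' word for a group of connected nodes), and clique size is the number of nodes. There was therefore no spread between animals, no p-value is given, and values describe 2 networks. The young network held 56928 nodes and the old 40304, and the number of contacts behind either is unknown. Young cliques had a mean of 10.5 nodes and old cliques a mean of 6.75. Of the 8 hepatocyte marker genes, 7 were listed at both ages, including Alb in cliques of 60 and 41 nodes. Of the 9 liver endothelial markers 3 were listed in young, in cliques of 3 to 25 nodes, and 1 in old, Lyve1 with 3 nodes. By position, in the gene or within 2500 bp of it, Eng had cliques of 50 and 47 nodes in young and old, Stab2 of 13 and 10 and Pecam1 of 88 and 2, while Cdh5, Kdr, Tek and Clec4g had no node at either age. Kupffer cell and lymphocyte markers, 7 and 4 genes, were listed at neither age, and 1 of 6 stellate and 1 of 5 cholangiocyte markers were listed in young only. By position Cd79a of lymphocytes had cliques of 15 and 8 nodes, Csf1r of Kupffer cells an old clique of 2 and Sox9 of cholangiocytes a young clique of 2. Epas1 is also active in endothelium, and the part of other cells in the values below was not tested. In a bulk assay, fewer cells of a type and less acetylation per cell cannot be told apart.

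Promoter sequences from the RefSeq tables (GRCm38.p6, 250 bases before to 50 after the start site) were found for Hif1a, Arnt, Egln1, Egln3 and Vegfa. Printed here are those of Hif1a and Egln1, whose start-site bins held a young node and no old node, and those of Egln3 and Vegfa, whose start-site bins held a node at both ages. Capitals mark ACGTG, a form of the core of the hypoxia response element, or CACGT, the same letters on the opposite strand. Other forms of the core were not searched for, so a window without ACGTG may still hold one. In Hif1a the 2 overlap in CACGTG.
Hif1a, chr12:73907617-73907916, plus strand: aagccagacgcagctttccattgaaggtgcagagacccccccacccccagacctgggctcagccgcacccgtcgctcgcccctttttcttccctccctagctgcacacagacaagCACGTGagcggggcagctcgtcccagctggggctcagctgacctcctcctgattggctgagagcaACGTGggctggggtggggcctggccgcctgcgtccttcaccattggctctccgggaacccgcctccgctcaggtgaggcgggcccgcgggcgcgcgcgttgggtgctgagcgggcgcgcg
Egln1, chr8:124949205-124949504, minus strand: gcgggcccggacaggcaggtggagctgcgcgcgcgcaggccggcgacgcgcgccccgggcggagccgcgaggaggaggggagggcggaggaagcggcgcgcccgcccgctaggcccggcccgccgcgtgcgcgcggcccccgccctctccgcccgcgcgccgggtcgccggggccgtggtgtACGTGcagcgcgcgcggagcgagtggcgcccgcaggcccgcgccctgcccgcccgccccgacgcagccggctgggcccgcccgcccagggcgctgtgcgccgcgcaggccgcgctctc
Egln3, chr12:54203825-54204124, minus strand: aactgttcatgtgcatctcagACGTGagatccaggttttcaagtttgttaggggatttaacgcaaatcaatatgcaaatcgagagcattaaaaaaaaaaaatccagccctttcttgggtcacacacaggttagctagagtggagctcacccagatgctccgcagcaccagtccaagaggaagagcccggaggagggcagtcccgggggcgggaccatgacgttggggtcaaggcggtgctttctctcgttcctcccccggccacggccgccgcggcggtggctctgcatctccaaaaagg
Vegfa, chr17:46032328-46032627, minus strand: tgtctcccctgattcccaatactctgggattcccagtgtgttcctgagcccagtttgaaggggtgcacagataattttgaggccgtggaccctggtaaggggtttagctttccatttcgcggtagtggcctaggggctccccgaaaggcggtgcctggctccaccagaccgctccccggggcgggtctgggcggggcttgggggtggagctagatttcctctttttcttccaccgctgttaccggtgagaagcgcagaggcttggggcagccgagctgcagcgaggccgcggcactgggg

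The search covered 6 promoter entries of these 5 genes, since Vegfa has a second start site inside the gene. ACGTG occurred on either strand 3 times in the Hif1a window, 1 time each in those of Egln1 and Egln3, and 1 time in the second Vegfa window, and in neither the Arnt window nor the Vegfa window shown. Of all 32851 promoter windows of the same length, 19.6% held it. The Egln1 window was the richest in G and C, at 86.0%, compared with 54.7% for Egln3. All 6 start-site bins held a young node, and 4 held an old node as well, those of Arnt, Egln3 and both starts of Vegfa. Over all protein-coding promoter entries with a young node at the start site, 70.7% also had an old node.

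Epas1, encoding the alpha subunit HIF-2 alpha (gene 13819, chromosome 17, 86753864 to 86833410), was listed in a 99-node young clique and a 96-node old clique. Vegfa was in cliques of 85 and 76 nodes, Arnt in cliques of 68 and 23, Hif1a in cliques of 20 and 15 and Egln3 in cliques of 16 and 11. Egln1 was in a 9-node young clique and was not listed in old. Each gene was listed in at most 1 clique per age. The order of the genes by size was Epas1, Vegfa, Arnt, Hif1a, Egln3 and Egln1 at both ages. Of the 5401 young cliques the one listing Epas1 was the 18th largest, and of the 5973 old cliques it was the 6th largest, while the clique of Vegfa was the 33rd largest in young and the 12th in old.

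**Figure D1:**
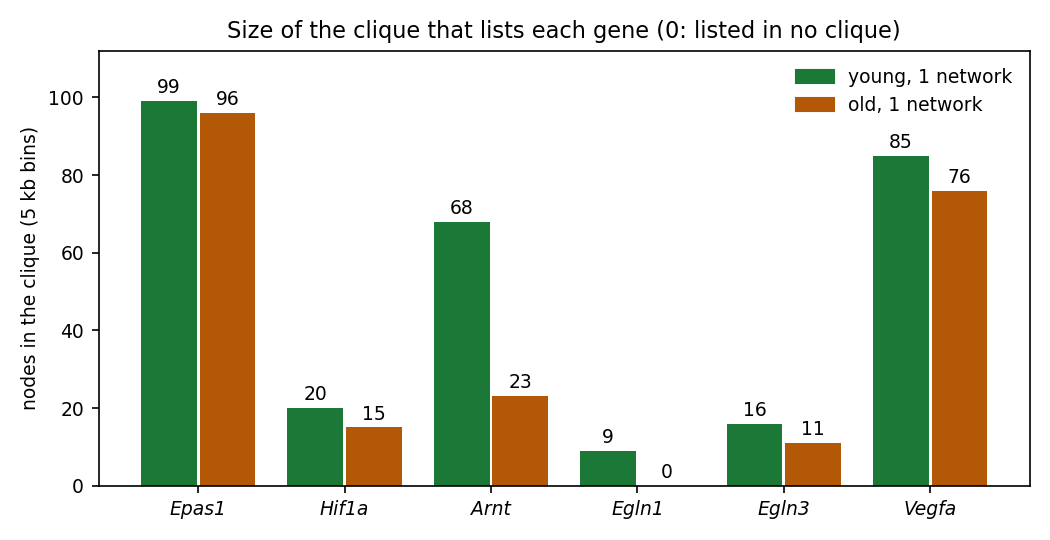
Number of nodes (5 kb bins) in the clique that lists each gene, in the young and the old network, as bars from 0 with the value above each. Epas1 stands at 99 and 96 nodes, Arnt at 68 and 23, and Egln1 has no old clique.

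Listing at both ages was found for 5 of the 6 genes, compared with 65.2% of the 9595 protein-coding genes listed at either age. All 5 had the smaller clique in old, as did 81.5% of the 6257 genes listed at both. On the scale log2((old nodes + 1)/(young nodes + 1)), Epas1 was at -0.04, Vegfa at -0.16, Hif1a at -0.39, Egln3 at -0.50 and Arnt at -1.52. The median over the 6257 genes was -0.63, so that Arnt was the 1 gene of the 5 below it. A log2 value of -1 or lower, at least 2-fold smaller, was found for Arnt, and over all genes for 35.7%. No member reached 1 or more, compared with 3.77% of all genes. Of all genes, 81.2% had a lower log2 value than Epas1, 76.3% a lower one than Vegfa and 21.4% a lower one than Arnt. After each network was scaled by its mean clique size the median of all genes was -0.01, and Epas1 (0.59), Vegfa (0.48), Hif1a (0.22) and Egln3 (0.10) lay above 0 and Arnt (-0.90) below it.

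The Epas1 cliques were of near-equal size but differed in content. Of the 99 young nodes, 66 (66.7%, exact Clopper-Pearson 95% interval 56.5 to 75.8, which covers counting error only) were present in the old network, and 33 were absent. With a node in an adjacent bin counted as present, the share was 87.9% (87 of 99). All 66 nodes present in the same bin lay in the old clique that lists Epas1. The old clique had 30 further nodes. Of these 18 came from a second young clique, 1 from a young clique of 3 nodes, and 11 were absent from the young network. Over the whole network 55.6% of young nodes were present in old. Among the 200 young cliques of 50 or more nodes the median share was 67.5%, and the Epas1 clique ranked 108th. In 32 of these 200, as here, all matched nodes lay in 1 old clique.

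The second young clique began where the Epas1 clique ended on chromosome 17, with 37 nodes from 86915001 to 87580000. It listed Mcfd2, which helps export coagulation factors from the endoplasmic reticulum, and Ttc7, a scaffold of a lipid kinase complex at the plasma membrane (both chosen after their values were seen). Of its nodes 18 (48.6%, 31.9 to 65.6) were present in old, all 18 in the clique of Epas1, and 19 were absent. Mcfd2 starts 421 kb and Ttc7 449 kb past the end of Epas1. Of 21 bins that overlap Ttc7, 15 held nodes of the young clique, 14 held nodes of the old Epas1 clique, and 13 held both. Together the 2 young cliques had 136 nodes, of which 84 (61.8%) were in the old clique of 96. The Jaccard index, shared nodes over nodes in either, was 0.51 for the young Epas1 clique alone and 0.57 for both young cliques taken as 1. Of the 58 old cliques with 50 or more nodes, 12 took at least 10% of their nodes from a second young clique. With 18.8%, the Epas1 clique ranked 9th by that share.

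**Figure D2:**
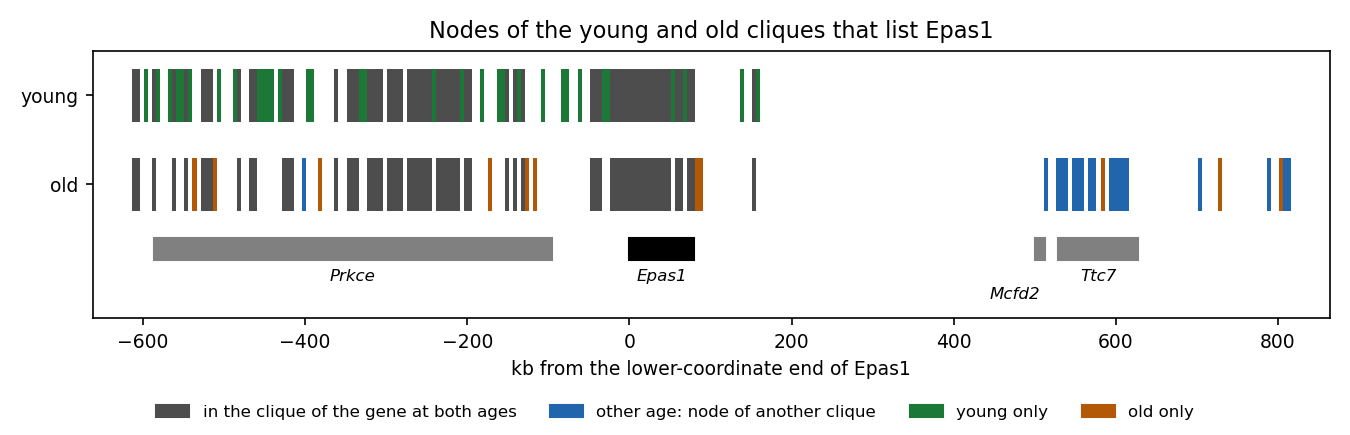
Nodes of the cliques that list Epas1, by distance in kb from the lower-coordinate end of the gene, young above old, each block 5 kb wide. Grey nodes were in the Epas1 clique at both ages (66), blue nodes belonged to another clique at the other age (19 in old), and green (33) and orange (11) nodes were found at 1 age. Gene bodies of Prkce, Epas1, Mcfd2 and Ttc7 are drawn below.

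The young clique spanned 775 kb, from 86140001 to 86915000, and the old clique 1430 kb, from the same start to 87570000. A gap of 355 kb without nodes divided the old clique, from 76.6 kb to 432 kb past the end of Epas1, and 21 old nodes lay beyond it. In young the same gap held 9 nodes, 8 of them in the second clique. Nodes covered nearly the whole Epas1 gene at both ages. All 17 bins that overlap the gene held a young node and 15 held an old node, and those 15 were shared. The longest unbroken block of nodes was 26 bins (130 kb) in young and 15 bins (75 kb) in old, and the clique fell into 23 blocks in young and 38 in old. By its longest block the clique ranked 31st of 5401 in young and 74th of 5973 in old.

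Prkce, which encodes protein kinase C epsilon and lies below Epas1 on the chromosome (86167785 to 86657919), was the protein-coding gene listed with Epas1 at both ages. Of the 99 bins that overlap it, 64 held nodes of the young Epas1 clique, of which 41 (64.1%) were present in old, and 48 held nodes of the old clique. The share of young nodes present in old varied between bands of distance from Epas1, without a steady trend. A relation to distance was not tested. Of young nodes in the gene 15 of 17 were present in old, and 7 of 9 within 50 kb of it. From 50 to 200 kb it was 6 of 16, from 200 to 500 kb 30 of 42, and beyond 500 kb 8 of 15. All 4 gene names listed with Epas1 in young were listed with it in old, where 6 more names were added. The 4 shared names are 100% of the young list and 40% of the old.

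By clique size over the 2 networks, the genes nearest to Epas1, each from another pair of cliques, were Agmat, an agmatinase gene, with 85 and 97 nodes, the apolipoprotein gene Apoc1 with 98 and 121, and the arrestin-domain gene Arrdc2 with 84 and 81. Their distances from Epas1 on the log2(size + 1) scale were 0.22, 0.33 and 0.34. The Jaccard index of their young and old cliques was 0.39 for Agmat, 0.61 for Apoc1 and 0.60 for Arrdc2, compared with 0.51 for Epas1.

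Hif1a, encoding the other main alpha subunit (gene 15251, chromosome 12, 73901324 to 73947554), was in much smaller cliques than Epas1. Of its 20 young nodes 14 (70.0%, 45.7 to 88.1) were present in old. There 12 lay in the old clique of Hif1a and 2 in a separate old clique of 2 nodes. Of the 6 absent nodes, 2 lay in the gene and 4 between 50 and 200 kb from it. The young clique had 5 nodes in the Hif1a gene, of which 3 were present in old, 1 of them in the clique that lists Hif1a. Both nodes of the separate old clique lay in bins of the gene span, and that clique listed the noncoding gene Gm15283, which in young was listed together with Hif1a. All 7 young nodes outside the gene and within 50 kb of it were present in the old Hif1a clique.

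The start site in the promoter entry of Hif1a (73907867) lay in a bin with a young and no old node, although the old network listed the gene. The RefSeq gene model begins at 73901324, in a bin with nodes at both ages. The old Hif1a clique spanned 425 kb, compared with 260 kb in young. Its lowest node lay more than 200 kb below the gene, at Tmem30b, which encodes a subunit of lipid flippases and was listed with Hif1a in old. In young Tmem30b was in a clique of 4 nodes. Snapc1, a subunit gene of the complex that starts small nuclear RNA transcription, was listed with Hif1a at both ages.

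Arnt, the shared beta subunit gene (gene 11863, chromosome 3, 95434367 to 95497240), had the largest size difference of the 5 members listed at both ages. Its young clique had 68 nodes over 1045 kb, from 94780001 to 95825000, and its old clique 23 nodes over 555 kb. Of the young nodes 35 (51.5%, 39.0 to 63.8) were present in old, where they were spread over 5 cliques. The old clique of Arnt held 19, a clique of 15 nodes held 12, and the other 3 cliques, of 2 nodes each, held 4 in all. The Arnt clique ranked 186th of the 200 young cliques of 50 or more nodes by share present in old, and its Jaccard index was 0.26, or 0.42 when a node in an adjacent bin counted as shared. In reverse, 22 of the 23 old nodes (95.7%, 78.1 to 99.9) were present in young, compared with 78.5% of all old nodes. Among the 1070 old cliques of 10 to 49 nodes the median share was 90%, and the Arnt clique ranked 231st.

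Loss from the Arnt clique included every node in its farthest stretch. None of its 13 young nodes more than 500 kb away was present in old. From 200 to 500 kb it was 18 of 29, of which 3 were in the old Arnt clique, and from 50 to 200 kb 15 of 23, of which 14 were. No gene was added to the list in old. The 10 names that remained with Arnt are 38.5% of the 26 young names. Among the nearest protein-coding genes, Cers2, a synthase of very long chain ceramides, the deubiquitinase gene Mindy1, Prune1 and Mcl1, which protects cells from apoptosis, were listed with Arnt at both ages. Cdc42se1 and Mllt11, also listed with Arnt in young, were in an old clique of 2 nodes. The old clique of 15 nodes listed Rfx5, a regulator of class II histocompatibility genes, Pi4kb and Zfp687, which in young were listed with Arnt (these 3 were chosen after their values were seen).

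**Figure D3:**
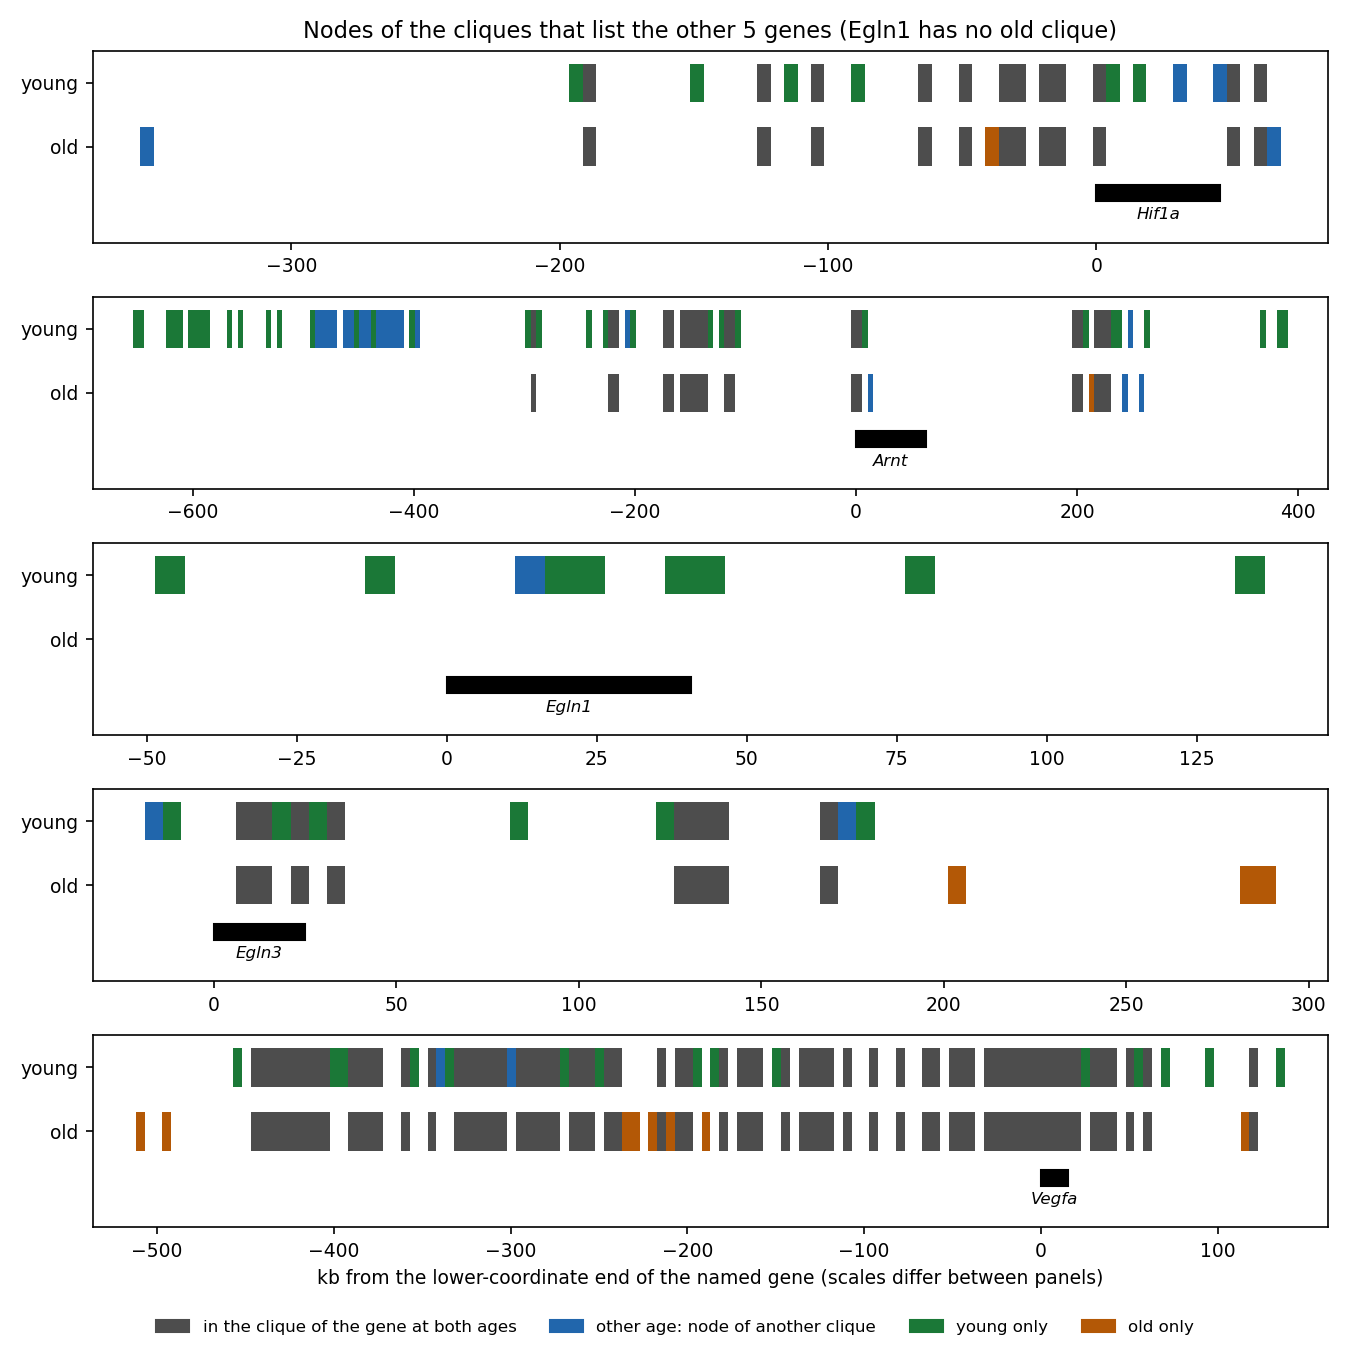
Nodes of the cliques that list Hif1a, Arnt, Egln1, Egln3 and Vegfa, by distance in kb from the lower-coordinate end of each gene, with young above old and the gene in black; scales differ between panels. Grey nodes were in the clique of the gene at both ages, blue nodes were in another clique at the other age, and green and orange nodes were found at 1 age. The green nodes on the far left of the Arnt panel include the 13 more than 500 kb away, and Vegfa is mostly grey.

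Egln1, the main prolyl hydroxylase gene of oxygen sensing (gene 112405, chromosome 8, 124908587 to 124949254), kept the smallest share of its young nodes. Of the 9 nodes of its young clique 1 was present in old (11.1%, 0.281 to 48.2), or 3 (33.3%) with adjacent bins counted. Few nodes lie behind this share and its interval is wide. Among the 3829 young cliques of 2 to 9 nodes, with the Egln1 clique at the upper end of that range, the median share was 0%. Among the 1372 young cliques of 10 to 49 nodes it was 58.8%. The young clique covered 5 of the 10 bins in the Egln1 gene and 2500 bp on either side. In old 2 of the 10 bins held nodes, in a clique of 2 nodes that listed no gene, and 1 of those bins was shared. The young clique also listed Sprtn, a protease that clears DNA-protein crosslinks, Exoc8 of the exocyst, Gnpat, an enzyme of ether lipid synthesis, and 2810004N23Rik, and these 4 genes were likewise in no old clique.

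Egln3, a prolyl hydroxylase gene that hypoxia-inducible factors switch on (gene 112407, chromosome 12, 54178981 to 54203874), was listed with 1 other name, Gm47552, at both ages. Of its 16 young nodes 10 (62.5%, 35.4 to 84.8) were present in old, 8 of them in the old Egln3 clique of 11 and 2 in a clique of 2 nodes. With adjacent bins counted the share was 93.8%. In the gene and 2500 bp on either side, 6 of 7 bins held young nodes and 3 held old nodes. The remaining 3 nodes of the old clique were absent from young and lay past the end of the young clique, and the old clique spanned 285 kb compared with 200 kb. Its Jaccard index was 0.42.

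Vegfa (gene 22339, chromosome 17, 46016993 to 46032377) had the highest share of young nodes present in old of the 6 genes. Of its 85 young nodes 70 (82.4%, 72.6 to 89.8) were present in old, 68 of them in the old Vegfa clique of 76, for a Jaccard index of 0.73. By best Jaccard index it ranked 14th among the 200 young cliques of 50 or more nodes, compared with 91st for the Epas1 clique and 189th for that of Arnt; the median was 0.49. All 5 bins of the gene and its flanks held nodes of the Vegfa clique at both ages. The longest block of nodes was 22 bins (110 kb) in young and 11 bins (55 kb) in old.

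The genes listed with Vegfa were largely the same at both ages. Of 18 names in young and 14 in old, 12 were shared, 66.7% of the young list and 85.7% of the old. Rsph9, a cilium gene, Mrpl14, a mitochondrial ribosomal protein gene, Tmem63b, an ion channel gene, and 1600014C23Rik were listed at both ages. The mitochondrial ribosomal protein gene Mrps18a and Mad2l1bp were listed with Vegfa in young and in no old clique. Hsp90ab1, which encodes a chaperone of HIF-1 alpha, shared the cliques of Vegfa at both ages and so has the same sizes (chosen after its values were seen).

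**Figure D4:**
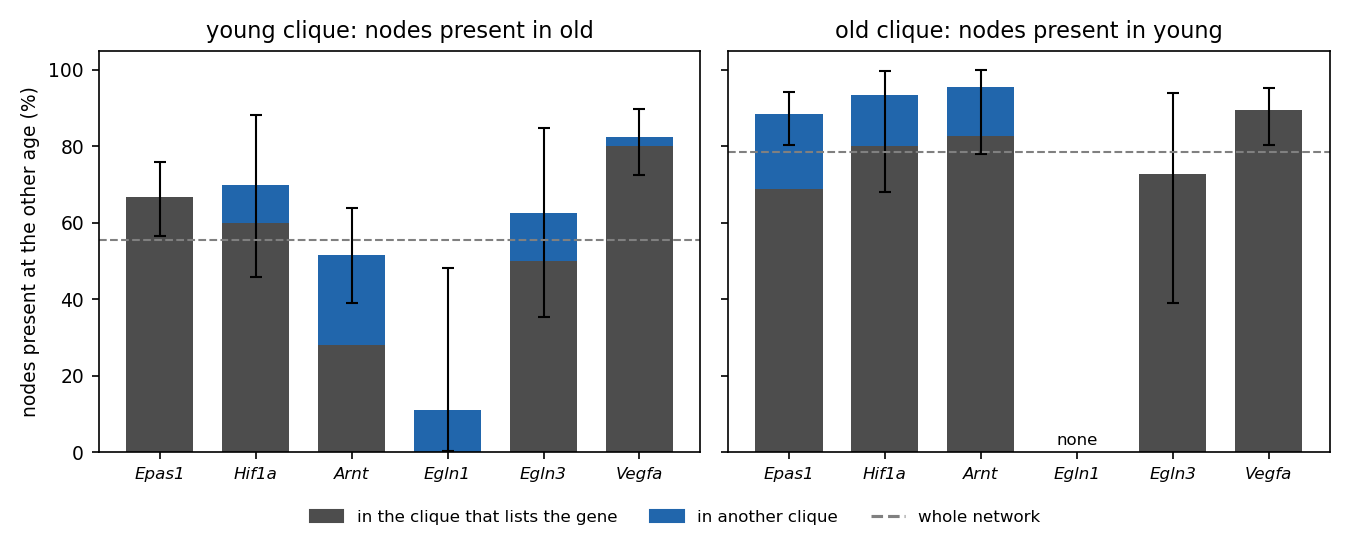
Percentage of the nodes of each gene's young clique present in the old network (left) and of its old clique present in the young network (right), with exact 95% intervals. Grey is the part in the clique that lists the gene and blue the part in other cliques; dashed lines mark the whole networks, at 55.6% and 78.5%. Vegfa is highest on the left at 82.4% and Egln1 lowest at 11.1%.

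The other hypoxia genes were described by lists chosen with earlier results of these data known. Of 15 further genes of the pathway (subunits, sensors, degradation and cofactors) 9 were listed at both ages. Of these 8 had the smaller clique in old and 1 the larger, against 81.5% smaller over all genes. The 8 include Hsp90ab1, whose cliques are those of Vegfa, so its values repeat those of a member. At least 2-fold smaller values were found for 5 of the 9, against 35.7% of all genes. The median log2 value was -1.0, compared with -0.63 over all genes. Scaled by mean clique size, 5 had smaller and 4 larger values, compared with 3189 smaller and 3068 larger among the 6257 genes listed at both ages. The largest differences, all toward a smaller old clique, were those of Rbx1 (14 and 2 nodes), Crebbp (12 and 2), Ep300 (14 and 3) and Cul2 (16 and 4). Rbx1 and Ep300 start at 81466316 and 81586209 on chromosome 15. They may share 1 young clique and so may not be separate cases, which was not tested. A clique of 2 nodes is the smallest possible. With a minimum of 3 nodes, 6 pathway genes listed at both ages were smaller in old and 1 was larger. Rbx1 and Cul2 encode parts of the von Hippel-Lindau ubiquitin ligase, and Ep300 and Crebbp encode the coactivators that acetylate histone H3 at lysine 27. The gene of the ligase's recognition subunit, Vhl, was in cliques of 67 and 43 nodes, and that of elongin B, Elob, was the 1 with a larger clique, at 15 and 17 (both chosen after their values were seen). Hif3a, Arnt2, Egln2 and Hif1an were listed at neither age, and P4htm in young alone, with 2 nodes (all chosen after their values were seen).

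Of 54 target genes other than Vegfa and Egln3, 27 were listed at both ages, 7 in the young network alone, 4 in the old alone and 16 at neither age. The 9595 protein-coding genes listed at either age hold no gene of the last kind, so shares of the 54 and of the 9595 are not alike. Of the 9595, 6257 were listed at both, 2433 in young alone and 905 in old alone. Among the 27 the clique was smaller in old for 24, larger for 2 and equal for 1, compared with 81.5% smaller over all genes. The median of -0.61 was near that of all genes, -0.63. At least 2-fold smaller values were found for 9 of the 27, compared with 35.7% of all genes, and at least 2-fold larger values for 2, Eno1 and Tfrc, compared with 3.77%. Scaled by mean clique size, 14 had smaller and 13 larger values, compared with 3189 smaller and 3068 larger among the 6257 genes listed at both ages.

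Among secreted factors, Fgf21, a hormone of fasting, was in cliques of 72 and 2 nodes, the lipase inhibitor gene Angptl4 in cliques of 49 and 15, Angpt2, which acts on blood vessels, in cliques of 31 and 12, and Adm in cliques of 7 and 4. Pgf, a relative of Vegfa, was listed in old only, with 7 nodes (chosen after its values were seen). Of 16 glycolytic genes 6 were listed at both ages, 5 with a smaller and 1 with a larger clique in old. Over all genes listed at both ages 81.5% had a smaller one. Gapdh was in cliques of 119 and 35 nodes and Tpi1 in cliques of 119 and 60, while Eno1, the enolase gene, was in cliques of 11 and 30. Gapdh and Tpi1 start at 125161852 and 124810586 on chromosome 6 and may share 1 young clique, which was not tested. The glucose transporter gene Slc2a1 was in cliques of 22 and 18. Slc16a3, a lactate exporter gene, was listed in old only, in a clique of 77 nodes, as was the hexokinase gene Hk1 with 2. Listed in young only were the aldolase gene Aldoa with 63 nodes, the phosphofructokinase gene Pfkl with 38 and Pgam1 with 2. By position Aldoa had an old clique of 3 nodes. These 5 genes of a single age were chosen after their values were seen.

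In the iron and haem list, Slc11a2, an iron importer gene, was in cliques of 45 and 13 nodes and Tfrc, the transferrin receptor gene, in cliques of 6 and 14. Trf, which encodes transferrin, was in cliques of 25 and 16, and the haem oxygenase gene Hmox1 in cliques of 14 and 10. Among the remaining targets the histone demethylase gene Kdm4b was listed with 67 and 2 nodes. Its direction turned when the gene was placed by position, since a 116-node old clique overlaps its span. P4ha2, a collagen prolyl hydroxylase gene, was in cliques of 12 and 2, Mxi1, a repressor in the Myc network, in cliques of 17 and 4, and Pfkfb1 in cliques of 8 and 2. By position Mxi1 had 17 and 10 nodes and was no longer at least 2-fold smaller. Higd1a was listed in young only with 49 nodes, the histone demethylase gene Kdm3a with 47, Ero1l with 43 and the mitophagy gene Bnip3l with 12, and Ankrd37 in old only with 2. By position Higd1a had an old clique of 18 nodes. These 5 genes were chosen after their values were seen.

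**Figure D5:**
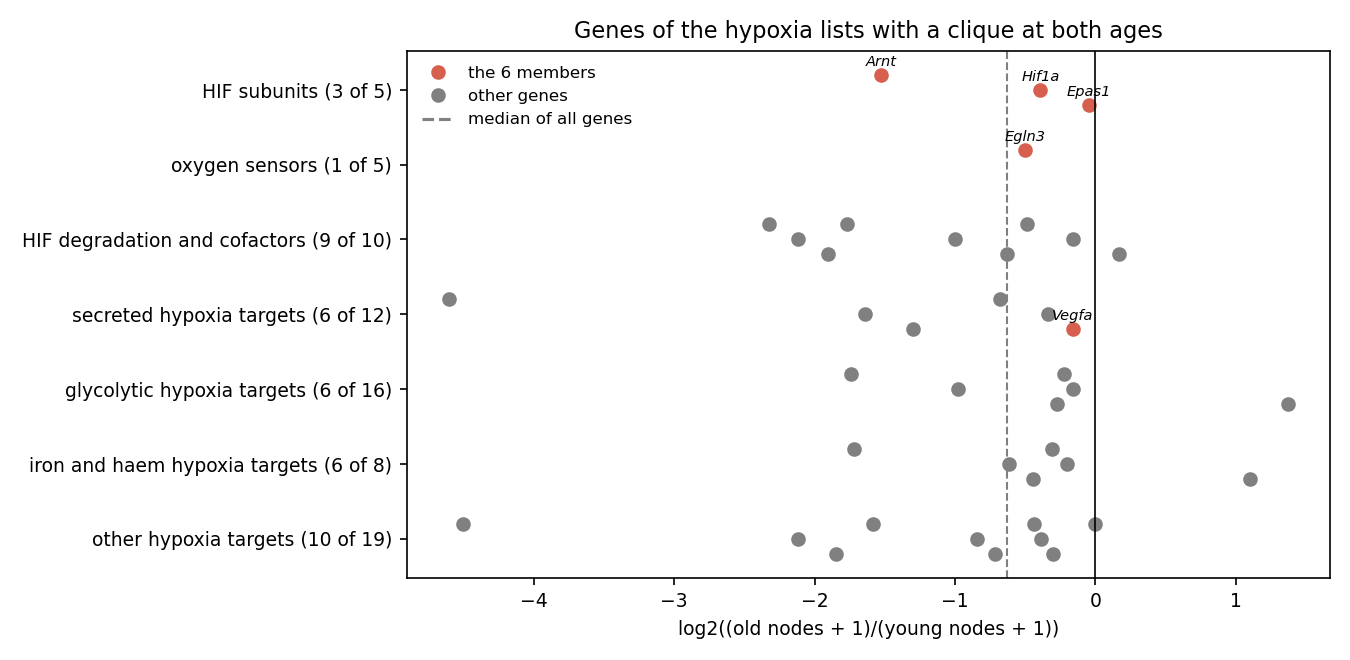
Change in clique size, log2((old nodes + 1)/(young nodes + 1)), of each gene of the hypoxia lists that was listed at both ages; the number listed at both of the number in the list stands beside each name. Red points are members, and the dashed line is the median of all genes, -0.63. Epas1 and Vegfa lie near 0 and Arnt at -1.52.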

How the data were processed

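H3K27ac Hi-ChIP was measured in 12 libraries, and the authors deposited 1 interaction network per age, as a table of 5 kb nodes and a table of cliques with their node number and gene names, per the file headers. Bowtie2 and HiC-Pro, with builds mm10 and GRCm38, are named in the submitters' processing notes, without versions. The pooling of libraries, the calling of loops and cliques, and the rule that ties a gene name to a clique were not stated in the labels or headers. A network from fewer contacts can hold fewer nodes, and depth is unknown.

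Genes were placed by the deposited gene names. Of these, 9595 matched protein-coding RefSeq genes of GRCm38.p6, by symbol or unique synonym. Coordinates are 1-based. The same 5 kb bin counted as shared between ages. Python 3.11.15, numpy 2.4.6 and scipy 1.17.1 were used. Intervals are exact Clopper-Pearson 95% intervals, which treat nodes as independent. Matching and Jaccard code was tested on simulated data. The 6 genes and the 7 lists were chosen with earlier results of these data known. Named genes are the members, protein-coding genes listed with Epas1 at both ages, up to 6 nearest listed with each other member, up to 4 per list with the largest absolute log2 value, and 3 genes nearest to Epas1 in clique size; others are said to be chosen after their values were seen. Alternatives covered gene placement (gene span plus 2500 bp), scaling by the mean of the age, a pseudocount of 5, summed cliques, a minimum of 3 nodes, adjacent bins and 1 gene per pair of cliques.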

Additional observations from a re-analysis of the deposited data

How the results depend on the processing

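No paired analysis was possible because each age is 1 pooled network that names no replicate; for the same reason no replicate could be left out. Placing genes by span, summed cliques and a minimum of 3 nodes gave the same log2 values for Epas1, Hif1a, Arnt, Egln3 and Vegfa, and a pseudocount of 5 gave -0.32 for Hif1a, -1.38 for Arnt and -0.39 for Egln3. Scaling by mean clique size turned the sign for Epas1 (0.59), Vegfa (0.48), Hif1a (0.22) and Egln3 (0.10), and Arnt was at -0.90. The same scaling gave 5 smaller and 4 larger pathway genes, and 14 smaller and 13 larger target genes. Over all genes listed at both ages it gave 3189 smaller and 3068 larger. By gene span 4 target genes were larger. With a minimum of 3 nodes 6 pathway genes were smaller and 1 larger, and 20 target genes were smaller and 2 larger. Counting adjacent bins raised the share of young nodes present in old to 87.9% for Epas1, 75.0% for Arnt, 93.8% for Egln3 and 95.3% for Vegfa, and the share of old nodes present in young to 94.8% for Epas1, 96.1% for Vegfa and 100% for Hif1a and Arnt. The Jaccard index then was 0.68 for Epas1, 0.42 for Arnt and 0.92 for Vegfa. The number of contacts behind each network is unknown and limits every comparison of size between the ages.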

Other observations

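Some hypoxia genes that no clique listed still had nodes in their gene span or within 2500 bp of it. Hif3a, the gene of another alpha subunit, had young and old cliques of 32 and 16 nodes there, Arnt2, a relative of Arnt, 25 and 18, and the prolyl hydroxylase gene Egln2 32 and 18. Car9, a carbonic anhydrase gene and a widely used marker of hypoxia, had 58 and 29. Hamp, which encodes the iron hormone hepcidin, had a young clique of 52 nodes and no old node. Hif1an and Epo had no node at either age. These genes were chosen after their values were seen.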
